A study of Mus musculus with 2 samples.

Results

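The Mir322 to Mir450b cluster is a run of 7 microRNA (miRNA) genes on the minus strand of the mouse X chromosome, and it was described in the embryonic kidney. Its members were chosen by position, as the genes listed for this cluster, at a time when the level of the cluster and of Mir322 and Mir351 in these libraries was already known. The levels below are therefore a description, with no test. All 7 members have a line in the files, out of 1973 miRNA genes. MicroRNA sequencing of small RNA below 30 nt had been carried out on total RNA from kidneys of healthy B6NCrl mouse embryos at 15.5 days of development. There is 1 group of 2 libraries, labelled biological replicates, and each is a pool of male and female embryos, 78 in replicate 1 and 62 in replicate 2. No allele, agent or treatment is named, and no second tissue, age or condition was analysed here. Counts are per hairpin, and the 5p and 3p arms cut from it are not told apart.

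A miRNA guides the silencing complex to messenger RNAs mainly through its seed, bases 2 to 8 of the mature sequence, so miRNAs with a common seed share many targets. Mir322 is the mouse counterpart of human miR-424. Together with Mir503 it belongs to the extended miR-15/16 group, known for repressing cyclins and other drivers of the G1 phase and for slowing the cycle of differentiating cells such as myoblasts. Mir351 carries the seed of the miR-125 group, which is known from developmental timing and blood formation. The miR-542-3p product is known as a repressor of survivin (Birc5), an inhibitor of apoptosis needed in cell division. The embryonic kidney holds dividing nephron progenitors, ureteric epithelium, stroma and vessels, and a bulk library does not tell which of them a miRNA came from.

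The mature products are shown first, since their seeds decide which other genes in the files compare with the members. All 7 members were matched by symbol to RefSeq sequences on GRCm38.p6, the assembly named mm10 in the files. The 14 arms hold 13 distinct sequences and 12 distinct seeds. Sequences are printed 5′ to 3′ with the seed in capitals. The arms with the seeds discussed below are these.
miR-322-5p: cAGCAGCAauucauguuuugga
miR-503-5p: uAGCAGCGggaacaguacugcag
miR-351-5p: uCCCUGAGgagcccuuugagccug
miR-542-3p: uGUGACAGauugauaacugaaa
miR-450a-5p: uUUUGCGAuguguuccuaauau
miR-450b-5p: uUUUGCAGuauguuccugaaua
miR-450a-1-3p: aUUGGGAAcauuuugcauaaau
miR-450a-2-3p: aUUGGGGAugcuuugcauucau
miR-450b-3p: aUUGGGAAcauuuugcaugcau

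The genes outside the cluster that were compared by seed carry the following arms, also from RefSeq.
miR-15a-5p: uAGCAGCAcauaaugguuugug
miR-15b-5p: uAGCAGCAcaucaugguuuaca
miR-16-5p: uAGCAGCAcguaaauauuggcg
miR-195a-5p: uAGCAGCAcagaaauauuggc
miR-125a-5p: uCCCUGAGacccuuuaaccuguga
miR-125b-5p: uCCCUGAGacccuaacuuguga

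Mir322 has the full miR-15/16 seed, whereas miR-503-5p shares only bases 2 to 7 with it. Counted from the 5′ end, the seed of miR-503-5p differs from that of miR-322-5p by A8G, and no other mouse miRNA in the RefSeq table has that seed. The first bases differ as well (C1U from miR-322-5p to miR-503-5p), and downstream of the seed the arms share little. Mir351 and miR-125a-5p are identical over their first 8 bases and differ at 14 of the 24 bases compared. The Mir450 genes resemble each other most. Mir450-1 and Mir450-2 both give miR-450a-5p, letter for letter. Their 3p arms differ by A7G in the seed and by 5 further bases. The 3p arm of Mir450b has the seed of miR-450a-1-3p and differs from it only by A19G and A20C.

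The cluster covers 6353 nt of chromosome X, from 53047997 to 53054349 on mm10 (GRCm38), with positions from GENCODE M21. In the order of the minus strand, Mir322 (ENSMUSG00000065418.1, 53054255 to 53054349) comes first. Mir503 (ENSMUSG00000076122.1, 53053984 to 53054054) follows after a gap of 200 nt, and Mir351 (ENSMUSG00000065503.1, 53053255 to 53053353) after another 630 nt. A gap of 3767 nt, which holds the long noncoding RNA gene Gm28730, separates them from Mir542 (ENSMUSG00000076140.1, 53049403 to 53049487). The Mir450 genes close the cluster. Mir450-2 (ENSMUSG00000076399.1) lies at 53048299 to 53048367, Mir450-1 (ENSMUSG00000065486.1) at 53048154 to 53048244 and Mir450b (ENSMUSG00000076050.1) at 53047997 to 53048078, with 54 and 75 nt between them. None of the 7 hairpins overlaps another annotated gene. The nearest gene upstream on that strand, the noncoding C430049B03Rik (53055046 to 53057190), ends 697 nt before the 5′ end of Mir322. The hairpins of Mir322, Mir503, Mir351 and Mir542 have a GC content of 50.5% to 54.9%, and those of the Mir450 genes of 30.5% to 36.2%.

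The libraries held 7434182 (replicate 1) and 5863293 (replicate 2) reads on the strand of a miRNA gene, and levels are given in CPM, counts per 1000000 of these reads. The limit that a count of 0 allows, 3 counts, is 0.404 CPM for the first library and 0.512 CPM for the second. Reads that match several loci were set apart by the authors and are in no gene's count. They made up 27.1% and 26.6% of all reads, so a gene with near-identical copies can stand too low. Intervals are 95% exact (Clopper-Pearson) binomial intervals and cover counting error only. Markers of kidney epithelium (the miR-200 genes) were present, with 5 of 5 above 0 and 2.48% and 2.13% of counts. Endothelial Mir126a held 4.97% and 4.78% and smooth muscle Mir143 and Mir145a together 2.495% and 2.94%. The adult kidney list of 5 genes held 0.0516% and 0.0366%. It names Mir194-1 and Mir194-2, and its sum can be too low if these are near-identical copies. Markers of striated muscle (7 measured, 0.101% and 0.0698%), leukocytes (3 measured, 0.0619% and 0.0700%), erythroid cells (2 measured, 0.0339% and 0.0466%), neurons (7 measured, 0.0194% and 0.0302%) and liver (Mir122, 0.0319% and 0.0628%) were low. At 0 in both libraries were Mir1a-1, Mir133a-1 and Mir133a-2 of muscle and Mir9-2 and the 3 Mir124a genes of neurons. These genes have copies elsewhere in the genome, so neither their 0 nor the low sums of their lists show absence. Mir1a-2 of muscle, Mir142 of leukocytes and Mir9-1 of neurons were listed but not analysed here, so the sums leave them out.

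Nearly all counted reads of the cluster came from its 5′ end. Its 7 genes held 4.85% of own-strand counts in replicate 1 (interval 4.83% to 4.86%) and 5.01% in replicate 2 (4.99% to 5.03%), or 4.93% ± 0.114 (SD, n = 2). With all reads of the file as the total the share was 2.46%. Of the 1894 genes with a GENCODE M21 position, among 1973, 120 are on the X chromosome, and 52 of these had a read in both libraries. The cluster alone supplied 66.0% and 65.0% of the counted reads of these 120 genes. X-linked genes with copies elsewhere can stand too low, so this part can be off. Mir322, Mir503 and Mir351 gave 98.0% and 98.2% of the cluster's counted reads, and the 4 genes beyond the wide gap 2.04% and 1.84%. Reads of miR-450a-5p, which Mir450-1 and Mir450-2 both give, match both genes and are in no gene's count. The part of the 4 genes can therefore be too low. A read covers a whole mature miRNA, so counts were not divided by length. The hairpins differ at most 1.43-fold in length, and the order of the levels was the same per length.

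Mir322, the lead member, had 304871 reads in replicate 1 and 229428 in replicate 2. That is 41009 CPM (40867 to 41152) and 39129.5 CPM (38973 to 39287), and it ranked at 7 among all genes in both libraries. Mir322 made up 84.6% of the cluster's counted reads in replicate 1 and 78.1% in replicate 2, or 81.4% ± 4.58 (SD, n = 2). The pools thus gave close values for the gene but less close values for its part of the cluster, because Mir351 moved. By level over both libraries, the 3 nearest genes outside the cluster were Mir99a at 37929 ± 435 CPM, the endothelial Mir126a at 48756 ± 1345.5 CPM and Mirlet7g at 52957 ± 61.8 CPM (SD, n = 2 each). The measure was the distance in log2 CPM over 2 libraries (0.12, 0.40 and 0.57), among 258 genes averaging 100 counts or more. With 2 libraries a correlation between genes has no meaning, and none was computed.

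Mir351, with the miR-125 seed, was next. It had 41914 reads (5638 CPM, interval 5584 to 5692, rank 30) in replicate 1 and 53031 reads (9045 CPM, 8968 to 9122, rank 23) in replicate 2, or 7341 ± 2409 CPM (SD, n = 2). By counted reads, only Mir322 and Mir98, a let-7 gene, had a higher mean among X-linked miRNA genes with a known position. Genes with copies elsewhere can stand too low in this order. Mir351 was higher in replicate 2, and the intervals are far apart. Its nearest genes by level were the X-linked Mir652 at 6703 ± 1017 CPM, Mir21a at 6719 ± 33.3 CPM and Mir100 at 7072 ± 344 CPM (SD, n = 2 each), at distances of 0.30, 0.50 and 0.55.

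Mir503, the immediate neighbour of Mir322, stood far below it. It had 6262 reads (842 CPM, 822 to 863) in replicate 1 and 5846 reads (997 CPM, 972 to 1023) in replicate 2, or 919.7 ± 109 CPM (SD, n = 2), at ranks 87 and 85. Although 200 nt separate the hairpins, Mir322 gave 48.7 reads (47.5 to 49.9) for each read of Mir503 in replicate 1 and 39.2 (38.2 to 40.3) in replicate 2. The genes nearest to Mir503 in level were Mir15b, of the same seed group, at 914.7 ± 20.8 CPM, Mir455 at 820.1 ± 97.03 CPM and Mir96 at 828 ± 54.2 CPM (SD, n = 2 each), at distances of 0.20, 0.23 and 0.34.

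Mir542 was at about the level of Mir503, although it lies beyond the wide gap. It had 5722 reads (769.7 CPM, 749.9 to 789.9) in replicate 1 and 4132 reads (705 CPM, 683 to 727) in replicate 2, or 737 ± 45.9 CPM (SD, n = 2). Mir503 exceeded it in both libraries, with ratios of 1.09 (1.06 to 1.13) in replicate 1 and 1.41 (1.36 to 1.47) in replicate 2, the smallest step between neighbours in the order of levels. The gap between their means, 182 CPM, was little more than the sum of their SDs, 155 CPM.

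The Mir450 genes were lowest. Mir450b had 1355 and 1039 reads, at 182 CPM (173 to 192) in replicate 1 and 177 CPM (167 to 188) in replicate 2, or 179.7 ± 3.58 CPM (SD, n = 2). Mir450-1 had 211 and 171 reads, at 28.4 CPM (24.7 to 32.5) and 29.2 CPM (24.96 to 33.9). Mir450-2 had 67 and 60 reads, at 9.01 CPM (6.98 to 11.4) and 10.2 CPM (7.81 to 13.2). All are above the limit that a count of 0 allows, and for each Mir450 gene the intervals of both pools overlap. For Mir450-1 and Mir450-2, with few reads, these intervals are wide for the level. The level of Mir450-1 and Mir450-2 cannot be read from these counts, however. They share a stretch of 25 nt that includes the whole of miR-450a-5p, so a read of that arm, shown above, matches both hairpins. Mir450b shares 19 nt with Mir450-1 and none of its arms is found whole in another annotated transcript. The other 4 members share at most 13 nt with any other miRNA hairpin.

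**Figure D1:**
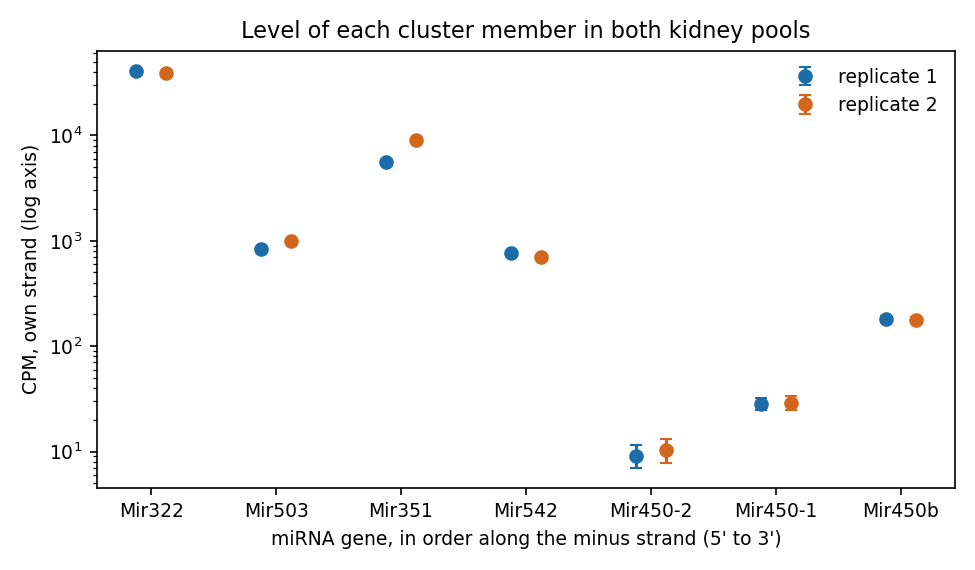
Level of each of the 7 members in CPM on a log axis, in order along the minus strand, for replicate 1 (blue) and replicate 2 (orange). Bars are 95% exact binomial intervals, mostly smaller than the points. Mean levels run from 9.62 CPM (Mir450-2) to 40069.5 CPM (Mir322), and the points of the 2 pools part most for Mir351.

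Over the 5 members that share no stretch of 20 nt with another miRNA gene, the order Mir322, Mir351, Mir503, Mir542, Mir450b was the same in both libraries. In each step the gap between the means was larger than the sum of the SDs, with n = 2. From Mir322 down to Mir450b the ratio was 223 by mean CPM. By their counts as deposited, Mir450-1 and Mir450-2 followed below Mir450b in both libraries, which would make the ratio 4164, but reads of their common arm are missing from these counts.

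Unequal levels inside a cluster were not particular to this one. In the Mir17 to Mir92-1 cluster on chromosome 14, which promotes proliferation and is needed in nephron progenitors, the ratio of the highest member (Mir17, 28125 CPM) to the lowest (Mir19b-1, 15.7 CPM) was 1791. Over its 4 members that share no 20 nt it was 597, down to Mir19a at 47.1 CPM. In the X-linked Mir106a to Mir363 cluster it was 59.7, from Mir106a at 334 CPM to Mir19b-2 at 5.59 CPM, and 16.2 over 4 members, down to Mir18b at 20.6 CPM. The leading gene took 81.3% of summed mean CPM in the Mir322 to Mir450b cluster, 63.0% in the Mir17 cluster and 37.8% in the Mir106a cluster. By counted reads in total the Mir17 cluster was close to the Mir322 to Mir450b cluster, at 4.47% and 4.46% of counts. The Mir106a cluster was far lower, at 0.0892% and 0.0873%. Each of these clusters has 2 members that share 20 nt, so each total can be too low and each leading share too high, by unknown amounts. The totals therefore do not rank the clusters.

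**Figure D2:**
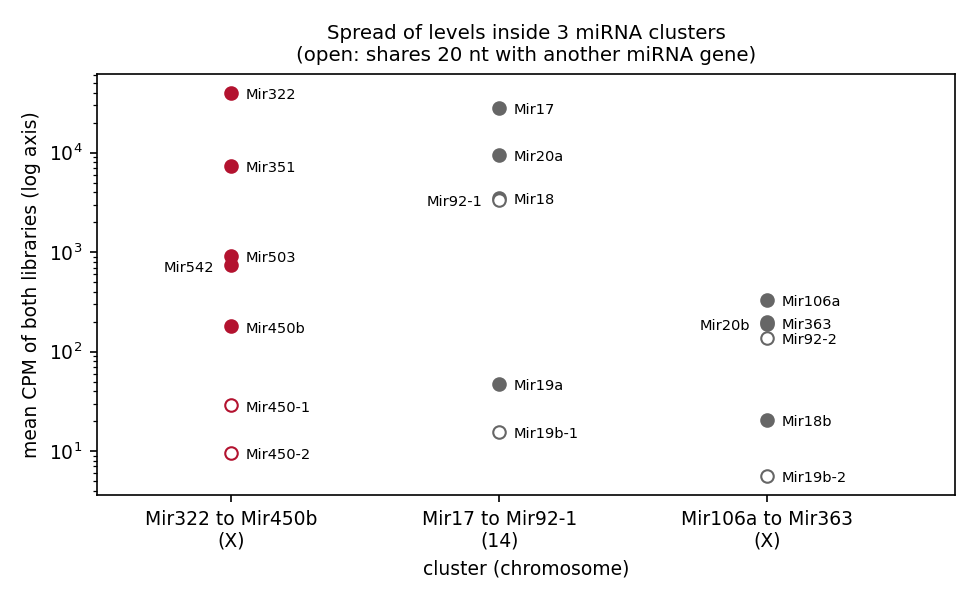
Mean CPM of both libraries on a log axis for each gene of 3 clusters, with the Mir322 to Mir450b cluster in red. Open circles are genes that share 20 nt with another miRNA gene, whose counts can be too low. In the red cluster they are the lowest 2 genes, and the 5 filled circles still span 223-fold.

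By seed, Mir322 had more counted reads than all other measured genes of the miR-15/16 group put together. The group was listed as Mir15a, Mir15b, Mir16-1, Mir16-2, Mir195a, Mir195b, Mir497, Mir322 and Mir503. Mir497 was not analysed here, which leaves 8 measured genes with 4.79% and 4.60% of all counts. Mir322 and Mir503 held 87.3% (87.2% to 87.4%) of the reads of this group in replicate 1 and 87.2% (87.0% to 87.3%) in replicate 2. Mir322 alone held 85.6% and 85.0%.

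Among the others, Mir15a was highest with 19751 and 16411 reads, or 2657 and 2799 CPM. Mir16-1, its neighbour on chromosome 14, had 12365 and 8732 reads (1663 and 1489 CPM). For each read of Mir15a there were 15.4 of Mir322 (15.2 to 15.7) in replicate 1 and 13.98 (13.8 to 14.2) in replicate 2. On chromosome 3, Mir15b had 6910 and 5277 reads (929 and 900.01 CPM) and Mir16-2 2537 and 1974 (341 and 337 CPM). Mir195a had 3622 and 2221 (487 and 379 CPM), and Mir195b had no read. Mir503 was thus below Mir15a and Mir16-1 in both libraries, and below Mir15b in replicate 1 and above it in replicate 2.

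This comparison has a large limit. The miR-16-5p sequence is the same in Mir16-1 and Mir16-2, so its reads match both genes and were set apart. The reads matching several loci numbered 3901906 in replicate 1, against 356318 in the whole group. If all of them belonged to the group's other genes, the part of Mir322 and Mir503 would be 7.31% in replicate 1 and 6.74% in replicate 2. None of Mir322, Mir503, Mir15a, Mir15b and Mir195a shares 20 nt with another miRNA gene. Among these 5, Mir322 was highest in both libraries. Matches elsewhere in the genome were not searched, so these counts can be too low as well.

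The same comparison for Mir351 gave a smaller lead. Mir351, Mir125a, Mir125b-1 and Mir125b-2 together held 0.855% of counts in replicate 1 and 1.37% in replicate 2. Mir351 supplied 65.9% (65.6% to 66.3%) and 66.2% (65.9% to 66.5%) of the reads of these 4 genes. Mir125a had 17109 and 22661 reads (2301 and 3865 CPM), Mir125b-1 had 2357 and 2396 (317 and 409 CPM) and Mir125b-2 had 2200 and 2014 (296 and 343 CPM). The ratio of Mir351 to Mir125a was 2.45 (2.41 to 2.49) in replicate 1 and 2.34 (2.30 to 2.38) in replicate 2. The Mir125b genes both give miR-125b-5p, whose reads match both, so their counts can be too low. If all reads that match several loci belonged to them, the part of Mir351 would be 1.06% and 1.61%. Mir351 and Mir125a share no 20 nt with another miRNA gene.

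**Figure D3:**
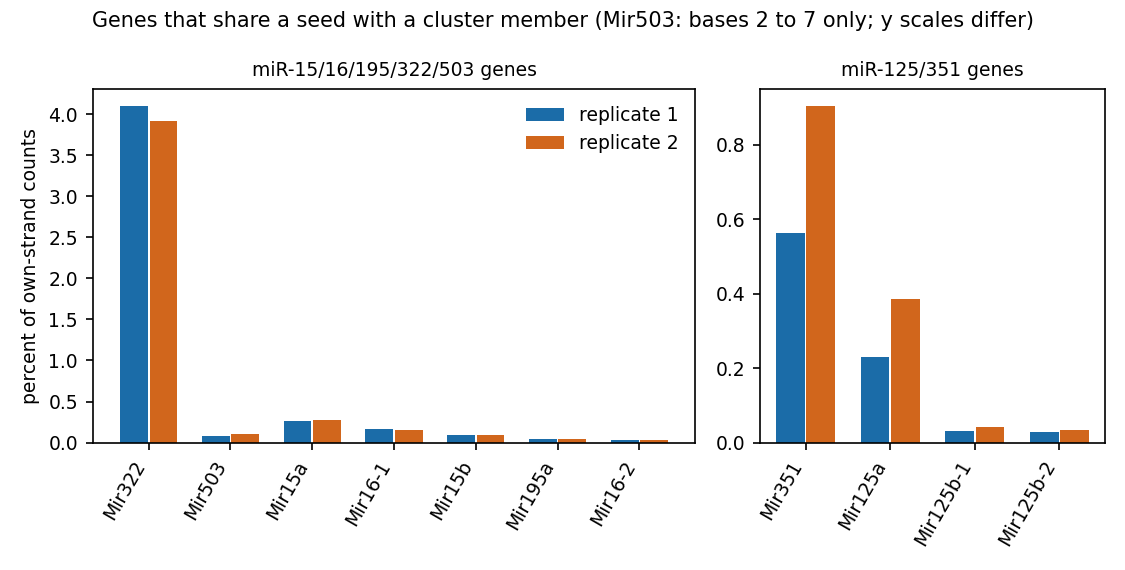
Percent of own-strand counts of each measured gene of the miR-15/16 group (left, without Mir195b, which had no read) and of the miR-125 group (right) in replicate 1 (blue) and replicate 2 (orange). The y scales differ between the panels. Mir16-1, Mir16-2, Mir125b-1 and Mir125b-2 share 20 nt with another miRNA gene, so their bars can be too low. Mir322 stands at about 4% and every other gene on the left below 0.3%, and on the right Mir351 and Mir125a are both higher in replicate 2.

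The other seeds of the cluster had little company. No gene outside the cluster has the seed of miR-542-3p, miR-450a-5p, miR-450b-5p or miR-503-5p in the RefSeq table. The 3p seed of Mir450-1 and Mir450b is also found in Mir6352, which had no read in either library. The miR-542-5p seed recurs in Mir6966, which had 2 reads in replicate 1 and 0 in replicate 2. The miR-15/16 seed is found in 3 further genes that were not on the list (Mir6342, Mir6353 and Mir6419) and the miR-125 seed in 2 (Mir6367 and Mir6394), all with 0 reads in both libraries.

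Between the pools, Mir351 differed most among the members, also under the other scalings given below. The log2 ratio of CPM, replicate 2 over replicate 1, was -0.07 for Mir322 (interval -0.08 to -0.06), 0.24 for Mir503 (0.19 to 0.29) and -0.13 for Mir542 (-0.19 to -0.07). It was 0.18 for Mir450-2 (-0.34 to 0.71), 0.04 for Mir450-1 (-0.26 to 0.34) and -0.04 for Mir450b (-0.16 to 0.08). For Mir351 it was 0.68 (0.66 to 0.70), a ratio of 1.60. No member differed by 2-fold or more, against 7.67% of the 378 genes averaging 10 counts or more. At 1.5-fold there was 1 of 7, Mir351, against 22.2% of the 378 genes, which is a share near the background. The median log2 ratio was 0.04 over the members and 0.15 over the 378 genes. Other scalings shift every ratio alike, by -0.13 with TMM and -0.16 with DESeq2 size factors. They bring Mir351 to 0.55 and 0.52, below 1.5-fold, and turn the sign of Mir450-1, to -0.09 and -0.12. Over all genes, 69 were higher and 15 lower by 1.5-fold, against 48 and 27 with TMM and 43 and 29 with DESeq2. At 2-fold the split was 23 and 6, against 17 and 9 with TMM and 17 and 10 with DESeq2. With 1 library on each side this compares libraries only, and in such bulk pools fewer cells of a type and less RNA per cell cannot be told apart.

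No scaling touches the ratio of members within a library. There, Mir322 gave 7.27 reads (7.20 to 7.35) for each read of Mir351 in replicate 1 and 4.33 (4.29 to 4.37) in replicate 2. For Mir542 the same ratio was 53.3 (51.9 to 54.7) and 55.5 (53.8 to 57.3), and for Mir450b 225 (213 to 238) and 221 (208 to 235). The intervals of the libraries thus overlap for Mir542 and Mir450b, as they do for Mir450-1 and Mir450-2. For Mir351 and, as given above, for Mir503 they do not.

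Other genes differed between the pools as much as Mir351. Of the 378 genes averaging 10 counts or more, 66 (17.5%) had a log2 ratio at least as far from 0 in either direction, itself included. Of the 264 averaging 100 or more there were 34 (12.9%), and of the 156 averaging 1000 or more 12 (7.69%). In the last set, whose median was 0.07, 10 genes were as high as Mir351 in its own direction. The 9 besides it were Mir541, Mir122, Mir224, Mir137, Mir342, Mir125a, Mir323, Mir382 and Mirlet7a-2, named after their values were seen. Mir125a, which has the same seed, was at 0.75 (0.72 to 0.78). Mir125b-1 followed at 0.37 (0.28 to 0.45) and Mir125b-2 at 0.22 (0.13 to 0.30). In the miR-15/16 group, Mir15a was at 0.08, Mir15b at -0.05, Mir16-1 at -0.16, Mir16-2 at -0.02 and Mir195a at -0.36. Of the marker lists above, those of smooth muscle, erythroid cells, leukocytes, neurons and liver also had a higher share in replicate 2, and the other 4 a lower one. Their part in the value of Mir351 was not tested.

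**Figure D4:**
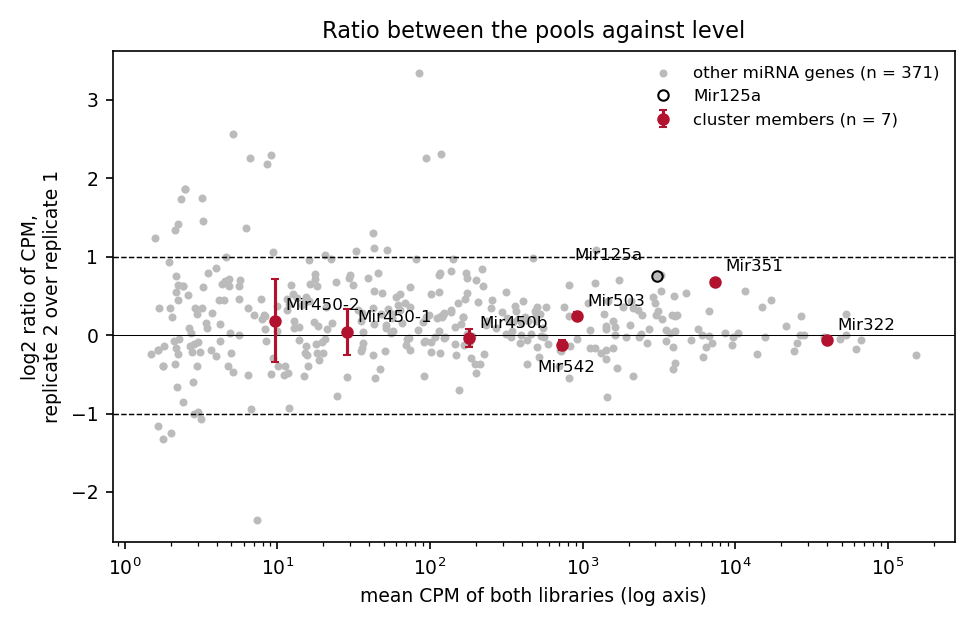
Log2 ratio of CPM, replicate 2 over replicate 1, against mean CPM (log axis) for the 378 genes averaging 10 counts or more. Members are red with 95% exact binomial intervals, Mir125a is ringed in black, and dashed lines mark a 2-fold ratio. All 7 members lie inside the lines, 6 of them between -0.13 and 0.24 and Mir351 at 0.68.

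Reads on the opposite strand of the members were nearly absent. There were 0 in replicate 1 for all 7 genes and 2 in replicate 2, both at Mir322, against 2.16% and 2.33% of gene reads over all genes.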

How the data were processed

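Each deposited file holds, for 1 library, raw counts of reads for each miRNA gene in 3 columns: unstranded, own strand and opposite strand. The authors' notes name mm10 and the GENCODE M4 annotation. The aligner is, like the counter, not given in the sources used here. Lines for reads in no gene (unmapped, 17.7% and 19.7% of reads in replicates 1 and 2, several loci, 27.1% and 26.6%, no gene, 3.71% and 5.20%) were kept out of library sizes.

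Levels are own-strand counts over their total, as CPM or percent. GENCODE M21, on the same assembly, gave names and positions for 1894 of 1973 identifiers. Sharing was called at 20 identical nt on either strand with a miRNA hairpin elsewhere (929 genes). For this, the rest of the genome and stretches with a mismatch were not searched. The mean and SD are over 2 libraries, whose p-values would measure only the spread between these pools, so none is given. Ratios between libraries used genes averaging 10 counts or more. Their interval was checked on simulated libraries with counting error only, so the check cannot show how it suits the spread between pools. edgeR 4.0.16 gave the TMM factors and DESeq2 1.42.0 the size factors, in R 4.3.3. Other steps used Python 3.11.15, scipy 1.17.1, pandas 2.3.3, numpy 2.4.6 and matplotlib 3.10.9.

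The members, lists and measures were chosen with earlier results of these data known. Named genes are the 7 members, the measured genes of both seed groups, the highest and lowest genes of 2 other clusters, and the 3 genes nearest in level to Mir322, Mir351 and Mir503. Markers of cell types, and Mir10a as the most abundant gene, are named as such. Genes named for a ratio as high as that of Mir351, further genes with a seed in question, Mir98 and Mir497b were added after their values were seen. Alternatives were other scalings, totals, a pseudocount of 0.5, another fold, both strands, copies summed, and each replicate or gene with copies left out.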

Additional observations from a re-analysis of the deposited data

Results flagged for a closer look

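Reads on the opposite strand of Mir497b lay outside the own-strand counts used in the report and far above the limit that a count of 0 allows. There were 3941 in replicate 1 and 3113 in replicate 2, against 0 and 1 on its own strand. Mir497, a miR-15/16 group gene annotated on the other strand at that place on chromosome 11, was not analysed here, and the origin of these reads was not tested.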

How the results depend on the processing

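The cluster's share of 4.93% became 2.46% with all reads in the file as the total, 5.83% without Mir10a and 5.29% without genes that share 20 nt. The part of Mir322 and Mir503 in the miR-15/16 group, 87.2%, became 90.95% without genes that share 20 nt, 86.3% with the opposite-strand reads at Mir497b added and 86.99% without Mir503. It became 7.02% with all reads matching several loci given to the other genes. The part of Mir351 in the miR-125 group, 66.1%, became 70.5% without genes that share 20 nt and 1.33% with those reads. The alternatives with Mir503 left out or with reads matching several loci given away were chosen after seeing the data. Members past the fold numbered 0 at 2-fold and 1 at 1.5-fold, and 0 at 1.5-fold with TMM or DESeq2 size factors, also added later. Each of these settings changes the total, the genes counted or the threshold by construction. Without counting left-out replicates, 10 of 20 values for these results moved by less than 1 SD or not at all. Leaving out each replicate gave 4.85% to 5.01% for the cluster, 78.1% to 84.6% for Mir322 in it, 87.2% to 87.3% and 65.9% to 66.2% for the seed groups; with 2 libraries this only returns the value of each. Of 56 values for single members, again without left-out replicates, 28 moved beyond the SD or interval. Among them, Mir503 had the second largest log2 ratio by size (0.24) as scaled here but not with TMM (0.12, against -0.26 for Mir542) or DESeq2 size factors (0.08, against -0.29). Mir450-1 and Mir450-2 have no value without genes that share 20 nt. No paired analysis was possible because there is 1 group. Depth limits Mir450-2 most, at 67 and 60 reads.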
